A study of Mus musculus with 15 samples.

Results

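The genes described here are 10 classic markers of mesenchymal cells and myofibroblasts, chosen by symbol: Vim, S100a4, Acta2, Tagln, Fn1, Sparc, Tnc, Postn, Lox and Fap. Each was read by 1 probe set, taken as the brightest with that symbol alone, out of 19937 genes measured on the arrays. All 15 arrays came from 4T1, an established mouse mammary carcinoma cell line that metastasises, with 3 arrays for each of 5 lines. The control was the parental 4T1 line. Tw1KD cells are 4T1 cells depleted of their own Twist1, a basic helix-loop-helix transcription factor. The remaining lines are Tw1KD cells to which Twist1 was returned as the wild-type protein (WT below), as Twist1/S42A or as Twist1/S42D, so all 3 also carry the depletion. The genotype label of the S42D arrays names both substitutions, and their group rests on the sample title. The protocol names 4 µg/ml puromycin and 800 µg/ml G418 for all cells. How Twist1 was depleted or returned, and whether a line is 1 clone or a pool, is not given in the sources used here. The labels give triplicates without saying that they were separate cultures, so the p-values measure only the spread between these arrays, which may be technical.

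Twist1 is known for driving the epithelial-mesenchymal transition, in which carcinoma cells lose cell-cell junctions and take on features of mesenchymal cells. The markers studied here are the usual readouts of that state. Vimentin (Vim) is the intermediate filament of mesenchymal cells, and S100a4 is a small calcium-binding protein also called fibroblast-specific protein. Smooth muscle actin (Acta2) and transgelin (Tagln) belong to the contractile apparatus that myofibroblasts share with smooth muscle. Fibronectin (Fn1), osteonectin (Sparc), tenascin C (Tnc) and periostin (Postn) are secreted into the matrix, Lox crosslinks collagen and elastin, and Fap is a surface protease of activated fibroblasts. In contractile cells the actin genes are known to be driven by serum response factor at CArG boxes, while Twist1 binds E-boxes.

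Twist1 had log2 intensities of 9.01 to 9.07 on the parental arrays and 7.23 to 7.47 on the Tw1KD arrays. It read 8.16 to 8.49 in the WT line, 8.60 to 8.80 with S42A and 8.96 to 9.07 with S42D. Whether its probe set reads the introduced transcripts was not tested. Of 8 epithelial markers, none lay near background in any line. Their mean log2 level per array was 10.40 to 10.53 in parental cells, 11.34 to 11.48 in Tw1KD cells, 9.26 to 9.28 in the WT line, 8.05 to 8.12 with S42A and 8.83 to 8.96 with S42D. The E-cadherin gene Cdh1 had a mean of 10.31 ± 0.023 in parental cells, 11.46 ± 0.0027 in Tw1KD cells, 8.52 ± 0.0034 in WT, 6.34 ± 0.076 in S42A and 7.50 ± 0.068 (SD, n = 3) in S42D. Epcam had 8.36 ± 0.45, 9.76 ± 0.47, 5.66 ± 0.027, 5.55 ± 0.085 and 5.63 ± 0.12 in the same order. The keratin gene Krt8 of this list went the other way. Its means were 13.06 in parental cells, 12.89 in Tw1KD, 13.18 in WT, 13.09 in S42A and 13.11 in S42D. It was called lower on depletion and higher in the last 3 lines than in Tw1KD. These levels lay near the top of the scale, where differences can be compressed. Ocln was lowest in WT, and it was called higher in S42D than in parental cells. Neither Ocln nor Krt18 was called between S42D and Tw1KD. Near background here means a line mean under 5.50 log2, the 25th percentile of all line means, and near the top means over 12.45, the 99th percentile. The Epcam means in WT, S42A and S42D lay just above this background threshold. In S42A, Krt19 and Dsp each had a mean of 6.01 and Cdh1 one of 6.34. Line means of all genes were most frequent just above the threshold. A mean over it thus does not show that a gene is expressed. Array maxima were 13.90 to 14.02. Precision is limited by having 3 arrays per line.

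The 10 markers did not move together. Depletion of Twist1 was followed by lower Sparc and Tnc, a small drop of Fn1 and no called change in the other 7 genes. Sparc rose with each form of Twist1. Tnc rose with the wild type and with S42A, and its smaller rise with S42D was called under only 13 of 25 alternative settings. S100a4 was not called on depletion and rose in all 3 lines given Twist1 back. Acta2 and Postn were highest in the S42A line, where Fn1 was lowest. Vim moved by less than 0.1 log2 in every comparison.

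Genes were called at an adjusted p under 0.05 in limma's moderated test, corrected over all 19937 genes by the Benjamini-Hochberg method. In Tw1KD cells 3 of the 10 markers were lower than in parental cells and none was higher, where 36.3% of all genes were called, 16.4% lower and 19.9% higher. Against Tw1KD cells, 6 were higher and 2 lower in the WT line (48.0% of all genes called, 23.5% higher and 24.5% lower). With S42A, 5 were higher and 1 lower (42.5%, 22.8% higher and 19.7% lower), and with S42D 3 were higher and none lower (43.4%, 21.7% higher and 21.7% lower). Against the WT line, S42A had 2 higher and 3 lower (40.0%, 20.0% in each direction) and S42D 2 higher and 2 lower (43.3%, 20.7% higher and 22.6% lower). S42D against S42A gave 2 higher and 2 lower (36.1%, 17.1% higher and 19.1% lower). Against parental cells, WT had 2 higher and 2 lower (49.0%, 25% higher and 24.0% lower), S42A 3 higher and 3 lower (40.3%, 22.6% higher and 17.7% lower) and S42D 2 higher and 2 lower (37.0%, 19.8% higher and 17.2% lower). Comparisons that share a line are not independent. The members' shares lie on both sides of those of all genes. The count of 8 for the WT line against Tw1KD is the furthest from the background, and it fell to 5 without Tw1KD replicate 3 or without WT replicate 2, and to 4 with only these lines fitted. The count of 3 for Tw1KD against parental cells became 5 without Tw1KD replicate 2 and with array weights. That of 4 for S42D against S42A became 7 with each array centred on its median, and that of 4 for WT against parental cells 7 with quantile normalization.

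The median log2 difference of the 10 markers between Tw1KD and parental cells was -0.049, against 0.0051 over all genes. Against Tw1KD it was 0.13 in the WT line (all genes -0.061), 0.26 with S42A (all genes -0.013) and 0.046 with S42D (all genes -0.045). An F test over the 5 lines, adjusted over all genes, called 8 of the 10 markers, where it called 61.3% of all genes. The exceptions were Vim (adjusted p = 0.17, limma) and Tagln (adjusted p = 0.36, limma).

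**Figure D1:**
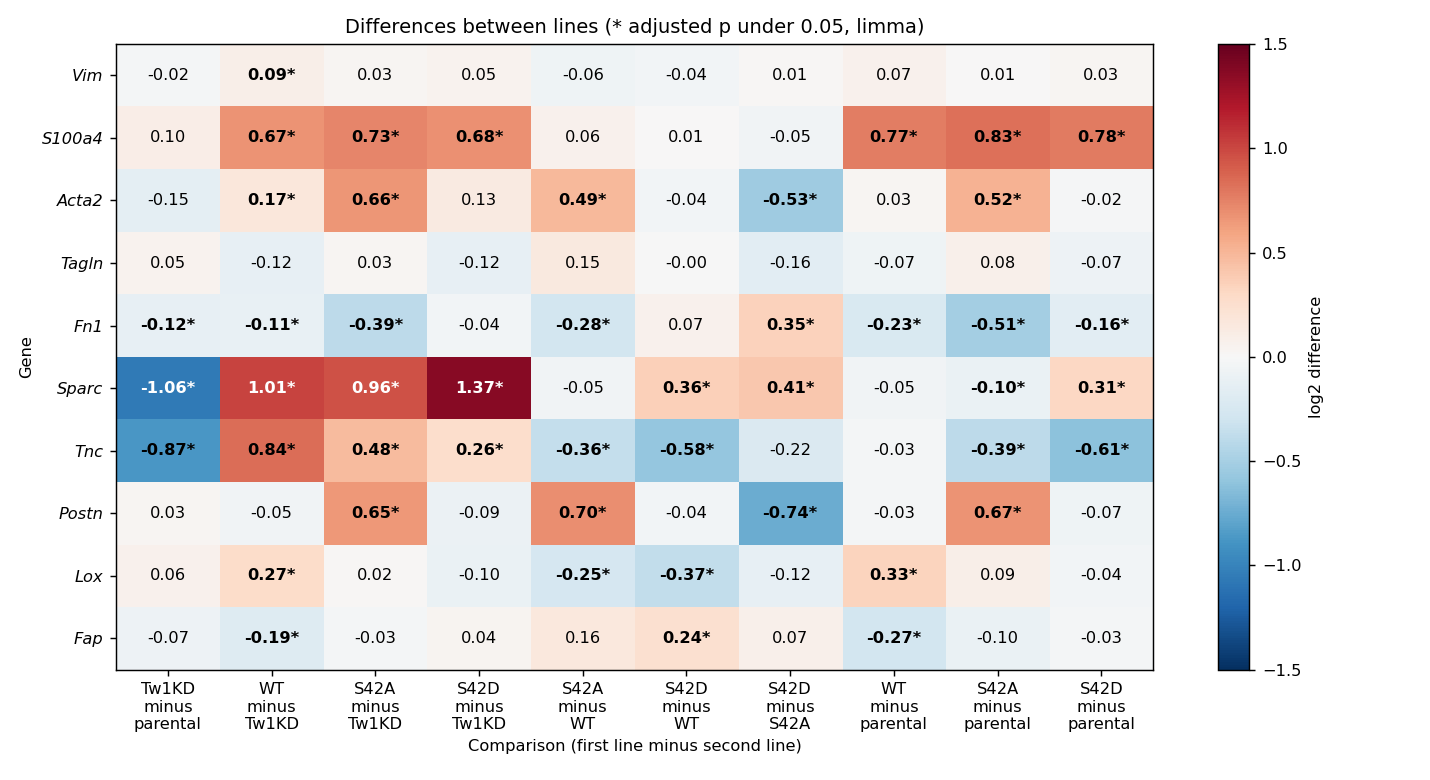
Heat map of the log2 difference between lines for the 10 markers (rows) in the 10 comparisons (columns, first line minus second), with n = 3 arrays per line; red is higher and blue lower in the first line, and an asterisk marks an adjusted p under 0.05. The strongest colours are those of Sparc, at -1.06 in Tw1KD against parental cells and 1.37 in the S42D line against Tw1KD, while the rows of Vim and Tagln are nearly white.

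RefSeq promoter sequences (GRCm38.p6) were at hand for 6 of the 10 markers, with no entry for Tagln, Fn1, Lox and Fap. The 250 bases before the first annotated start are printed 5′ to 3′ for the 2 of the 10 markers with the largest falls on depletion, Sparc (chr11:55420081-55420330, minus strand) and Tnc (chr4:64047016-64047265, minus strand), and for the contractile gene that was highest in the S42A line, Acta2 (chr19:34255374-34255623, minus strand). Capitals mark E-boxes (CANNTG, the same on both strands) and CArG boxes with at most 1 mismatch among their middle letters.
Sparc: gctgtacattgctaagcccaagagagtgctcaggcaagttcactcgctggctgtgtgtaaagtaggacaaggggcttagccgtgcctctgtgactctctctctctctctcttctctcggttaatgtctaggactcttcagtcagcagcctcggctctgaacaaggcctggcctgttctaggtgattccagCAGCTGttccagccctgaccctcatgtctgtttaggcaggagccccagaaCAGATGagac
Tnc: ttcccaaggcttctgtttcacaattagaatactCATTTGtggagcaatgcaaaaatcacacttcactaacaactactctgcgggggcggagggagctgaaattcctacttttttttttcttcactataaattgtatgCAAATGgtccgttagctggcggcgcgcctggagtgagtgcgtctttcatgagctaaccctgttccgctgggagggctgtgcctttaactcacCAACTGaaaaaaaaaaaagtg
Acta2: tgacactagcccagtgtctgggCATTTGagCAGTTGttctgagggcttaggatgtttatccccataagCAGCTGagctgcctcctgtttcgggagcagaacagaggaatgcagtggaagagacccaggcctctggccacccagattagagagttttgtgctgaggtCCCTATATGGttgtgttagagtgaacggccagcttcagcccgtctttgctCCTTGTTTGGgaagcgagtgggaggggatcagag
The Sparc window holds 2 E-boxes, CAGCTG from 60 and CAGATG from 10 bases before the start. The Tnc window holds 3, CATTTG from 217, CAAATG from 113 and CAACTG from 21 bases before the start, and the overlapping window of a start further downstream holds the last 2 of these again. The Acta2 window holds 3 E-boxes, from 228, 220 and 182 bases before the start, and 2 CArG boxes with 1 mismatch each, CCCTATATGG from 84 and CCTTGTTTGG from 34. The motifs did not overlap within a window. The same windows of Vim and S100a4, and both windows of Postn, held neither motif. Of 32536 distinct windows of this length in the table, 66.2% hold an E-box and 8.6% a CArG box with at most 1 mismatch. The CAGAC element bound by Smad proteins, searched on both strands, occurs once each in the printed Sparc and Acta2 windows and not in that of Tnc, and in 42.2% of all windows. These matches describe the letters only and are not shown to be bound.

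Of the secreted matrix proteins, Sparc, which binds collagen and modulates cell-matrix contact, varied most. Its log2 intensities were 12.93, 12.93 and 12.92 on the parental arrays and 11.86 on each of the 3 Tw1KD arrays. They were 12.89, 12.85 and 12.88 in the WT line, 12.84, 12.79 and 12.85 with S42A and 13.23, 13.25 and 13.22 with S42D. All Tw1KD arrays lay below, and all S42D arrays above, every other array. Sparc fell by 1.06 ± 0.033 log2 (SE, n = 3) on depletion, a 2.09-fold change (adjusted p = 8.7e-12, limma). Against Tw1KD it rose by 1.01 ± 0.033 in the WT line, 0.96 ± 0.033 with S42A and 1.37 ± 0.033 with S42D. The WT line then differed from parental cells by -0.052 ± 0.033 (95% interval -0.12 to 0.02, adjusted p = 0.21, limma). The S42D line exceeded parental cells by 0.31 ± 0.033, the WT line by 0.36 ± 0.033 and the S42A line by 0.41 ± 0.033. In order, the levels were S42D, parental, WT, S42A and Tw1KD. The neighbours parental and WT, and WT and S42A (-0.048 ± 0.033), did not differ beyond the threshold. The small deficit of the S42A line against parental cells (-0.10 ± 0.033, adjusted p = 0.025, limma) lost its call when parental replicate 1 or 2 or S42A replicate 2 was left out, with median centring (-0.017) or with only these lines fitted. The other 7 called differences of Sparc were called under all 25 alternative settings. Sparc lay near the top of the scale in all lines but Tw1KD, where differences can be compressed.

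Among 2424 other named genes whose line means spanned at least 1 log2, the pattern most like that of Sparc over the 15 arrays was found in Chst12 (Pearson r = 0.99), a chondroitin sulfotransferase gene, Emp3 (r = 0.99), a membrane protein gene, and Dab2 (r = 0.989), an endocytic adaptor gene. The arrays fall into 5 lines, so each r rests on the 5 line levels and is a description. Dab2 had means of 11.55 in parental cells, 9.92 in Tw1KD, 11.52 in WT, 11.69 in S42A and 12.10 in S42D. Emp3 had 10.91, 9.74, 10.93, 10.95 and 11.47 in the same order, and Chst12 had 10.73, 9.90, 10.72, 10.79 and 11.01. All 3 were lowest in Tw1KD and highest in the S42D line. In the S42A line their means lay above those of parental cells, whereas that of Sparc lay below.

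**Figure D2:**
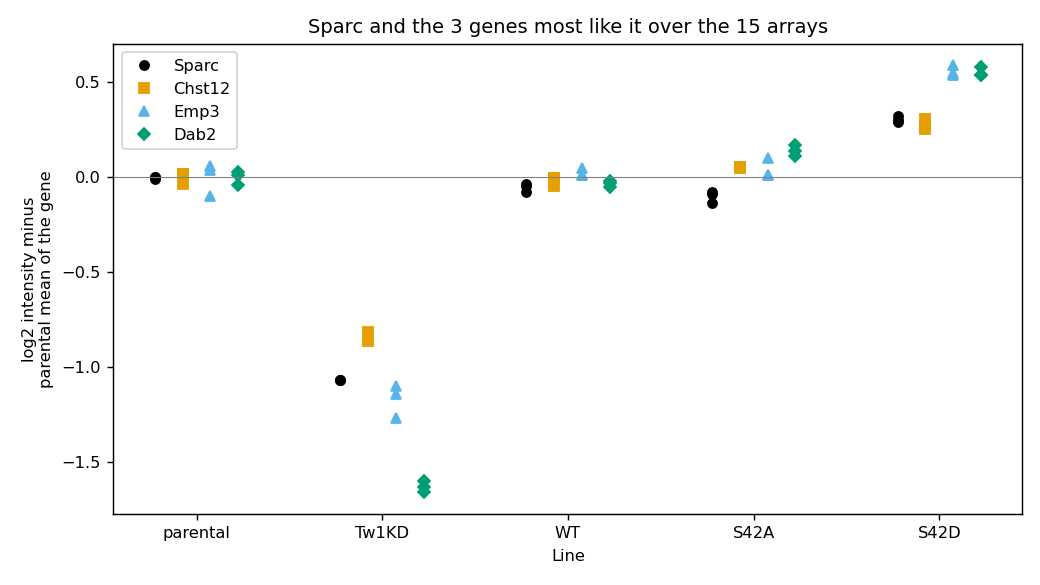
Log2 intensity minus the parental mean of the same gene (vertical axis) for Sparc, Chst12, Emp3 and Dab2 in the 5 lines (horizontal axis), with 1 point per array and n = 3 arrays per line. Every gene is lowest in Tw1KD and highest in the S42D line, where Sparc reads 13.22 to 13.25 against 12.92 to 12.93 in parental cells.

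Tnc encodes tenascin C, an adhesion-modulating glycoprotein of wound and tumour matrix. It read 6.43, 6.57 and 6.59 on the parental arrays, 5.47, 5.80 and 5.70 on the Tw1KD arrays, 6.69, 6.47 and 6.34 in the WT line, 6.05, 6.10 and 6.27 with S42A and 5.85, 5.96 and 5.94 with S42D. The WT arrays overlapped those of parental cells, and the S42A and S42D arrays lay between them and Tw1KD. Tnc fell by 0.87 ± 0.097 log2 on depletion, 1.83-fold (adjusted p = 4.6e-06, limma, n = 3). Its Tw1KD mean of 5.66 lay just above the background threshold, and Tw1KD replicate 1 (5.47) lay below it. Differences can be compressed at such levels, which also bears on the S42D line, with a mean of 5.92. Tnc rose by 0.84 ± 0.097 with wild-type Twist1 and by 0.48 ± 0.097 with S42A. The WT line differed from parental cells by -0.030 (95% interval -0.24 to 0.18), whereas the S42A line remained lower than parental cells by -0.39 ± 0.097 and the S42D line by -0.61 ± 0.097. Both mutants also lay below the WT line, S42A by -0.36 ± 0.097 and S42D by -0.58 ± 0.097. The S42D and S42A lines, neighbours in the order of levels, differed by -0.22 ± 0.097 (95% interval -0.43 to -0.02, adjusted p = 0.094, limma). The rise of 0.26 ± 0.097 in the S42D line over Tw1KD just passed the threshold (adjusted p = 0.042, limma) and was called under only 13 of 25 alternatives, with adjusted p up to 0.20. Without Tw1KD replicate 1 it was 0.17. Sparc and Tnc thus ranked the S42D line differently: highest of the 5 for Sparc, and next to Tw1KD for Tnc.

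Postn encodes periostin, a matrix protein that myofibroblasts secrete. On the S42A arrays it read 5.25, 5.35 and 5.46, above all 12 other arrays, which ranged from 4.45 to 4.78. The line means were 4.68 ± 0.079 (SD, n = 3) in parental cells, 4.71 ± 0.053 in Tw1KD, 4.66 ± 0.082 in WT, 5.35 ± 0.11 in S42A and 4.61 ± 0.17 in S42D. The S42A line was higher than Tw1KD by 0.65 ± 0.080 (adjusted p = 8.7e-06, limma), than WT by 0.70 ± 0.080, than S42D by 1.67-fold and than parental cells by 0.67 ± 0.080. None of the other 6 comparisons was called, with differences of -0.093 to 0.025. All 5 line means lay near background, and the S42A level itself was below that of most genes. Each of the 4 called differences was called under all 24 alternatives in which Postn was tested; the filter on dim genes leaves it out.

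Fn1 encodes fibronectin, the matrix protein bound by several integrins. It read 13.34, 13.34 and 13.40 on the parental arrays, 13.21, 13.23 and 13.27 in Tw1KD, 13.17, 13.09 and 13.14 in WT, 12.86, 12.84 and 12.85 in S42A and 13.19, 13.24 and 13.17 in S42D. All values lay near the top of the scale, where changes can be compressed. The S42A arrays were lower than all others: by -0.51 ± 0.037 log2 against parental cells (1.42-fold, adjusted p = 5.8e-08, limma, n = 3), -0.39 ± 0.037 against Tw1KD, -0.28 ± 0.037 against WT, while S42D exceeded S42A by 0.35 ± 0.037. Parental cells had the highest level, and every derived line was called lower. The steps from parental cells to Tw1KD (-0.12 ± 0.037) and from Tw1KD to WT (-0.11 ± 0.037) were small. The first lost its call when parental replicate 3 or Tw1KD replicate 1 was left out, with median centring (-0.067) or with only these lines fitted. The second was not called without Tw1KD replicate 3 or WT replicate 2 or 3, with median centring (-0.058), with quantile normalization (-0.074) or with only these lines fitted. The S42D line did not differ beyond the threshold from Tw1KD (-0.040 ± 0.037) or WT (0.068 ± 0.037). Fn1 and Postn, both secreted matrix proteins, thus moved in opposite directions in the S42A line.

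**Figure D3:**
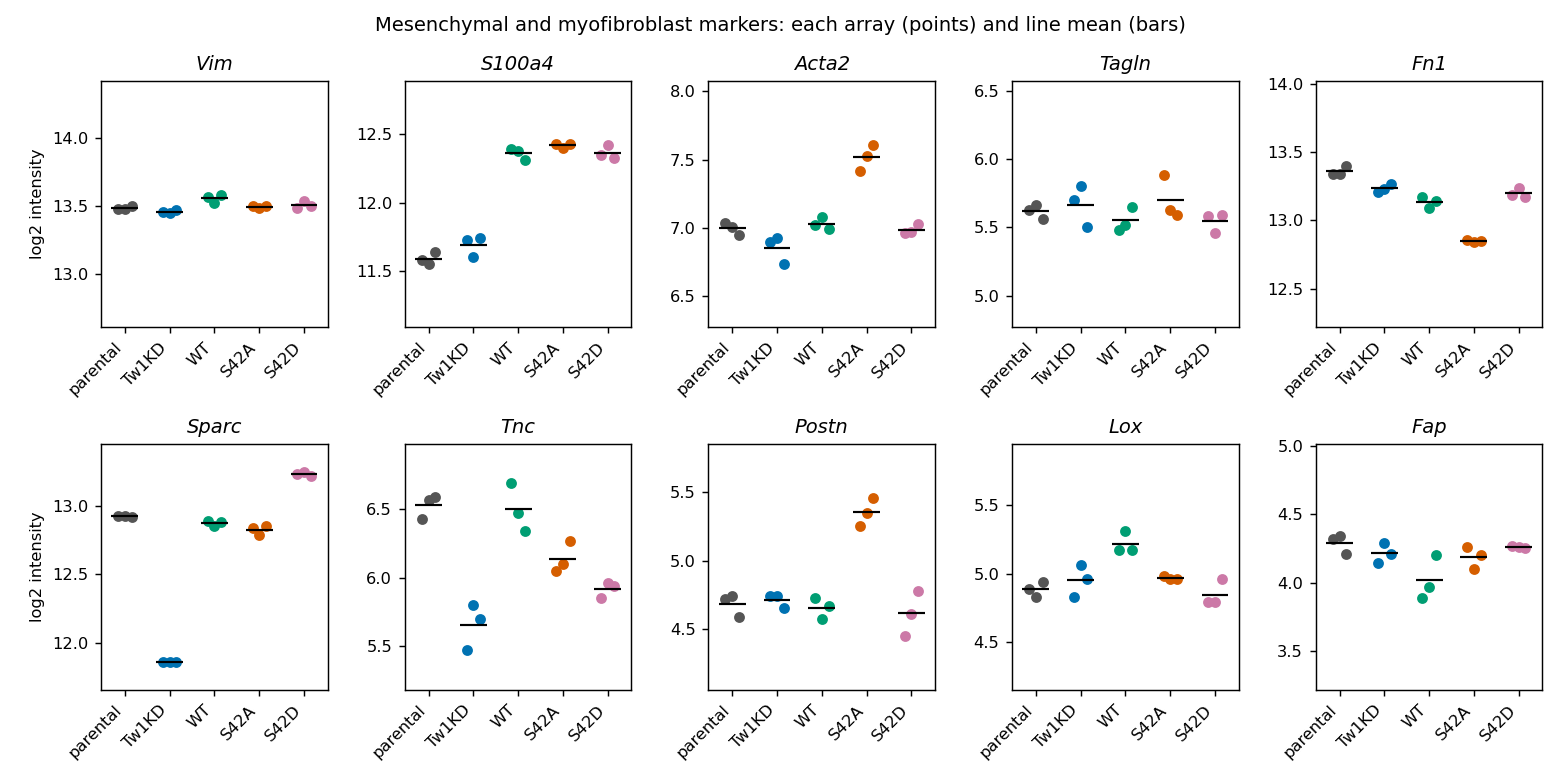
Log2 intensity (vertical axis, spanning the same range of log2 units in every panel) of each of the 10 markers on every array, with 3 points per line and a bar at the line mean; lines are on the horizontal axis. Sparc and Tnc are lowest in Tw1KD, S100a4 separates parental and Tw1KD cells (11.55 to 11.74) from the other lines (12.31 to 12.43), and Acta2 and Postn are highest and Fn1 lowest in the S42A line.

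S100a4 promotes motility and metastasis in mammary tumour models. It read 11.58, 11.55 and 11.64 on the parental arrays and 11.73, 11.60 and 11.74 on the Tw1KD arrays, which overlapped. It read 12.39, 12.38 and 12.31 in WT, 12.43, 12.40 and 12.43 in S42A and 12.35, 12.42 and 12.33 in S42D, above every array of the first 2 lines. Against Tw1KD the rise was 0.67 ± 0.047 log2 in WT (1.59-fold, adjusted p = 2.6e-08, limma, n = 3), 0.73 ± 0.047 in S42A and 0.68 ± 0.047 in S42D. The 3 lines with returned Twist1 also exceeded parental cells, by 0.77 ± 0.047, 0.83 ± 0.047 and 0.78 ± 0.047. These 6 differences were called under all 25 alternatives. Depletion itself gave 0.10 ± 0.047 (adjusted p = 0.12, limma), which was called with median centring (0.15), quantile normalization (0.12), array weights, a variance trend and without Tw1KD replicate 2 (0.15). The 3 lines with Twist1 returned differed from each other by 0.0087 to 0.062 in size, and none of these differences was called. The 95% intervals of these differences reached -0.15 and 0.16 log2.

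Vim, the gene of vimentin, was near the top of the scale on every array, at 13.45 to 13.58 log2. Its line means were 13.48 ± 0.011 in parental cells, 13.46 ± 0.012 in Tw1KD, 13.55 ± 0.033 in WT, 13.49 ± 0.0052 in S42A and 13.51 ± 0.024 (SD, n = 3) in S42D. The line means spanned 0.09 log2, and 4.79% of all genes had a smaller span. The only called difference was that of WT over Tw1KD (0.093 ± 0.033, adjusted p = 0.032, limma). It was called under 18 of 25 alternatives; among those without a call were the neighbour correction (0.013), which subtracts the median difference of the 500 genes nearest in level, a fit of only these lines, and leaving out WT replicate 1 (0.085) or 3 (0.083) or Tw1KD replicate 1 (0.095) or 2 (0.087). A level so near the array maxima may hide a change, so these values set no limit on vimentin RNA.

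Of the contractile genes, Acta2 read 7.04, 7.01 and 6.95 on the parental arrays, 6.90, 6.93 and 6.74 in Tw1KD, 7.02, 7.08 and 6.99 in WT, 7.42, 7.53 and 7.61 in S42A and 6.96, 6.97 and 7.03 in S42D. The S42A arrays lay above all others. The S42A line was higher than Tw1KD by 0.66 ± 0.058 log2 (1.58-fold, adjusted p = 2.5e-07, limma, n = 3), than parental cells by 0.52 ± 0.058 and than WT by 0.49 ± 0.058, and the S42D line was lower than S42A by -0.53 ± 0.058. These 4 differences were called under all 25 alternatives. The WT line exceeded Tw1KD by 0.17 ± 0.058 (adjusted p = 0.023, limma), a call lost without Tw1KD replicate 3 (0.12) or WT replicate 2 (0.15), with a variance trend and with only these lines fitted. Tw1KD differed from parental cells by -0.15 ± 0.058 (adjusted p = 0.067, limma), which passed the threshold without Tw1KD replicate 2 (-0.18) or S42A replicate 1, with array weights and without the dimmest genes. In order, WT, parental and S42D cells followed S42A and did not differ from each other beyond the threshold, at -0.045 to 0.028. Actins are near-identical in sequence, so the probe set may read more than 1 of them; Actg2, the other smooth muscle actin gene, was at 6.42 ± 0.13 in S42A and 6.38 ± 0.011 in parental cells (0.048 ± 0.096, not called), but it too was lower in S42D than in S42A (-0.34 ± 0.096, adjusted p = 0.012, limma).

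Tagln, a second smooth muscle marker, gave no called difference in any of the 10 comparisons. It read 5.56 to 5.66 on the parental arrays, 5.50 to 5.80 in Tw1KD, 5.48 to 5.65 in WT, 5.59 to 5.88 in S42A and 5.46 to 5.59 in S42D. Its line means of 5.54 to 5.70 lay just above the background threshold of 5.50, single arrays of WT and S42D lay below it, and the lines overlapped in 9 of 10 comparisons. The S42A line differed from parental cells by 0.082 ± 0.084 (95% interval -0.10 to 0.26). With each array centred on its median, S42D was called lower than S42A (-0.23). Whether Acta2 and Tagln respond differently was not tested.

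Both matrix enzymes lay near background in all 5 lines. Lox read 5.17, 5.31 and 5.17 in the WT line, above the other 12 arrays, which ranged from 4.79 to 5.06. WT exceeded Tw1KD by 0.27 ± 0.065 log2 (adjusted p = 0.0034, limma, n = 3) and parental cells by 0.33 ± 0.065, while S42A (-0.25 ± 0.065) and S42D (-0.37 ± 0.065) lay below WT. The other 6 comparisons of Lox were not called, and the 4 called ones were called under all 24 alternatives in which it was tested. Fap was lowest in WT, at 3.89, 3.97 and 4.20, against 4.21 to 4.34 in parental cells, 4.14 to 4.29 in Tw1KD, 4.10 to 4.26 in S42A and 4.25 to 4.27 in S42D. It was called lower in WT than in parental cells (-0.27 ± 0.072) and than in Tw1KD (-0.19 ± 0.072), where the arrays overlapped, and higher in S42D than in WT (0.24 ± 0.072). The Tw1KD comparison was called under 11 of 24 alternatives only. The comparison with parental cells was lost with median centring (-0.17) and the neighbour correction (-0.18), and that with S42D with median centring (0.14) and without WT replicate 1 (0.17) or 2 (0.21).

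**Figure D4:**
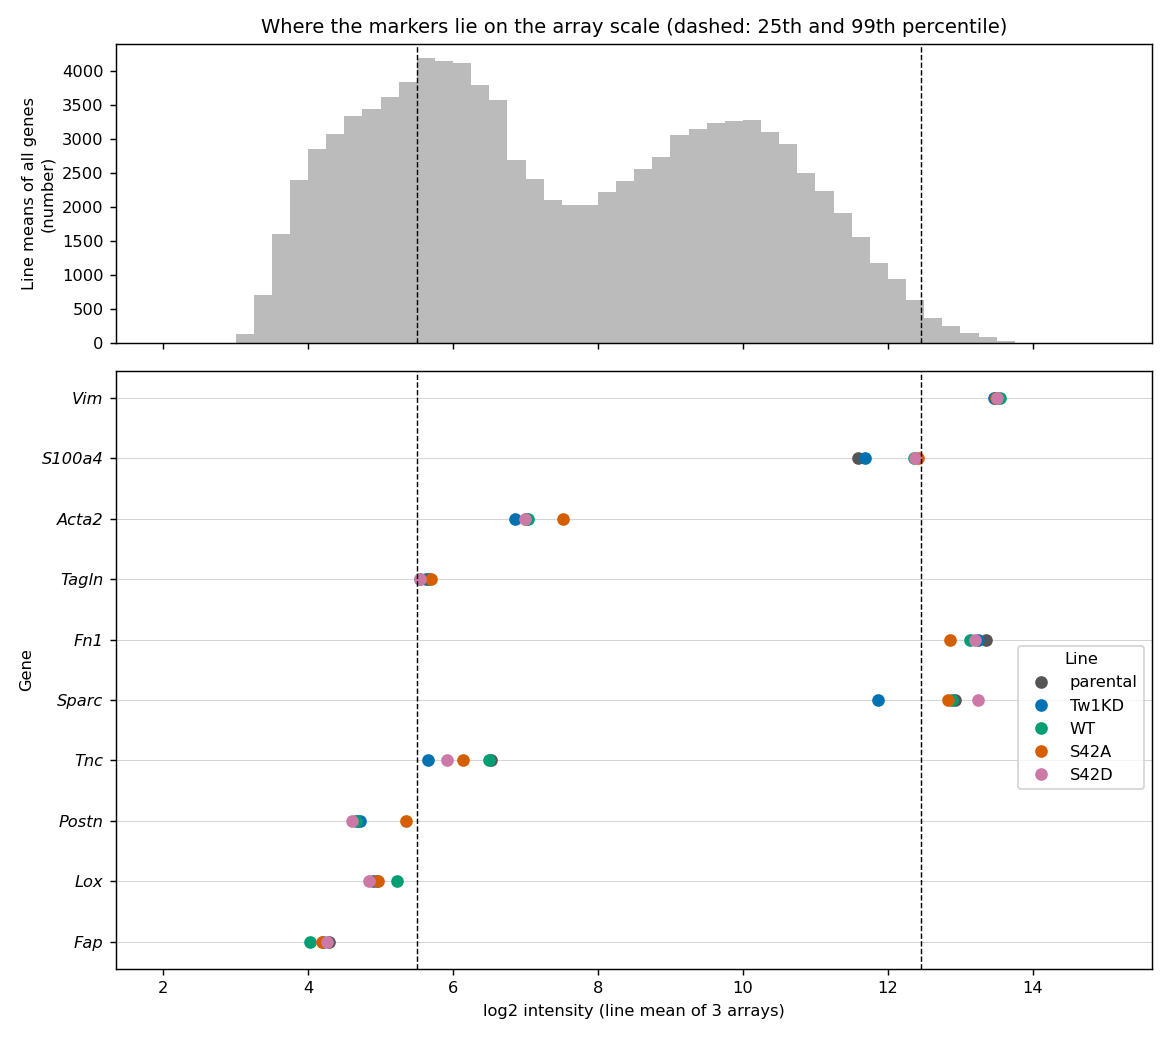
Upper panel, histogram of the line means of all 19937 genes in log2 intensity (horizontal axis); lower panel, the 5 line means of each marker on the same axis. Dashed lines mark the 25th percentile (5.50) and the 99th percentile (12.45): Postn, Lox and Fap lie below the first in every line, and Vim and Fn1 above the second. Probe sets differ in how they bind, so the position on this axis is not an amount of RNA.

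Of 25 contractile and serum response factor genes, 11 were lower and 2 higher (Des, Mrtfb) in Tw1KD than in parental cells, with a median of -0.13 log2 against 0.0051 for all genes, of which 16.4% were lower and 19.9% higher. Against Tw1KD, 11 were higher in each of the 3 lines given Twist1. In WT 3 were lower, in S42A 4 and in S42D none. Of all genes, 23.5% were higher and 24.5% lower in WT, 22.8% and 19.7% in S42A, and 21.7% each in S42D. Against parental cells, S42A had 5 higher and 8 lower, where 22.6% of all genes were higher and 17.7% lower. Against WT it had 6 higher and 8 lower, where 20.0% of all genes were called in each direction. Desmin (Des), the intermediate filament of muscle, had means of 6.53 ± 0.083 in parental cells, 6.84 ± 0.13 in Tw1KD, 6.44 ± 0.047 in WT, 7.77 ± 0.25 in S42A and 6.91 ± 0.049 (SD, n = 3) in S42D. In the S42A line Des was higher by 1.24 ± 0.10 than in parental cells and by 1.33 ± 0.10 than in WT. The smoothelin gene Smtn was lowest in S42A, by -0.68 ± 0.037 against parental cells and -0.31 ± 0.037 against WT, and the caldesmon gene Cald1 was lower there than in parental cells (-0.16 ± 0.043) and higher than in WT (0.36 ± 0.043). The calponin gene Cnn1 (0.11 ± 0.078), the myosin light chain gene Myl9 (-0.22 ± 0.11) and the tropomyosin gene Tpm2 (0.0021) were not called between S42A and parental cells; these 3 were picked after their values were seen, as further smooth muscle markers. Against WT, Cnn1 was higher in S42A (0.21 ± 0.078, adjusted p = 0.044, limma). The actin-binding gene Synpo2 was lower in Tw1KD than in parental cells by -1.12 ± 0.14. It was also lower than in parental cells in WT (-1.30 ± 0.14), S42A (-1.15 ± 0.14) and S42D (-1.15 ± 0.14). Its mean was 6.80 in parental cells and 5.50 to 5.68 in the derived lines. Those levels lay close to the background threshold, where differences can be compressed.

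Of 20 further matrix genes measured, 8 were lower and 1 higher (Fbln2) on depletion, with a median of -0.077 log2, where 16.4% of all genes were lower and 19.9% higher. The collagen VI gene Col6a1 (-2.18 ± 0.056) led these falls, and it had means of 9.83 in parental cells, 7.66 in Tw1KD, 9.71 in WT, 9.83 in S42A and 11.87 in S42D. The proteoglycan gene Bgn had 7.32, 6.08, 7.71, 6.85 and 10.82 in the same order, and it rose by 4.75 ± 0.094 in S42D over Tw1KD. Like Sparc, both were lowest in Tw1KD and highest in S42D. Against S42A, S42D had 10 of the 20 higher and none lower, where 17.1% of all genes were higher and 19.1% lower. Against WT it also had 10 and none, where 20.7% of all genes were higher and 22.6% lower.

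Of 23 genes from the families of the 10 markers, 5 were higher and 5 lower on depletion, against 19.9% and 16.4% of all genes, which is near the background. In WT 10 were higher and 2 lower than in Tw1KD, where 23.5% of all genes were higher and 24.5% lower. In S42D 3 were higher and 9 lower than in WT, where 20.7% of all genes were higher and 22.6% lower. The same numbers held for S42D against S42A, where 17.1% of all genes were higher and 19.1% lower. Loxl3, a relative of Lox that crosslinks matrix, had means of 10.36 in parental cells, 9.50 in Tw1KD, 9.88 in WT, 11.07 in S42A and 11.81 in S42D. Loxl4, another relative, had 10.75, 11.67, 11.78, 12.14 and 10.32 and was lower in S42D than in S42A by -1.82 ± 0.042. Neither followed Lox, which was highest in the WT line. Near S100a4 in its family, S100a3 had 8.31 in parental cells, 8.84 in Tw1KD, 9.60 in WT, 10.04 in S42A and 9 in S42D. It was called higher on depletion (0.53 ± 0.058) and lower in S42D than in WT (-0.60 ± 0.058). S100a6 had 12.09 in parental cells, 12.02 in Tw1KD, 12.40 in WT, 12.45 in S42A and 12.39 in S42D. Like S100a4, S100a6 was not called on depletion and was called higher in the 3 lines with returned Twist1 than in parental and Tw1KD cells. By contrast, S100a1 was lowest in S42D, and S100a11 was not called in the F test.

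Of 17 genes of the TGF-beta system, a main activator of myofibroblasts, 12 were lower and 3 higher (Acvr1b, Smad2, Smad7) on depletion, with a median of -0.28 log2 against 0.0051 for all genes, of which 16.4% were lower and 19.9% higher. The activin gene Inhba had means of 10.50 in parental cells, 6.37 in Tw1KD, 8.15 in WT, 7.80 in S42A and 10.47 in S42D, and the ligand gene Tgfb2 had 8.77, 5.85, 7.12, 7.60 and 8.61. S42D had 13 of the 17 higher than S42A and 1 lower (Tgfbr1), with a median of 0.61. Of all genes, 17.1% were higher and 19.1% lower. Against parental cells, 12 of the 17 were lower and 2 higher in S42A, and the same numbers in WT, where 17.7% and 24.0% of all genes were lower.

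**Figure D5:**
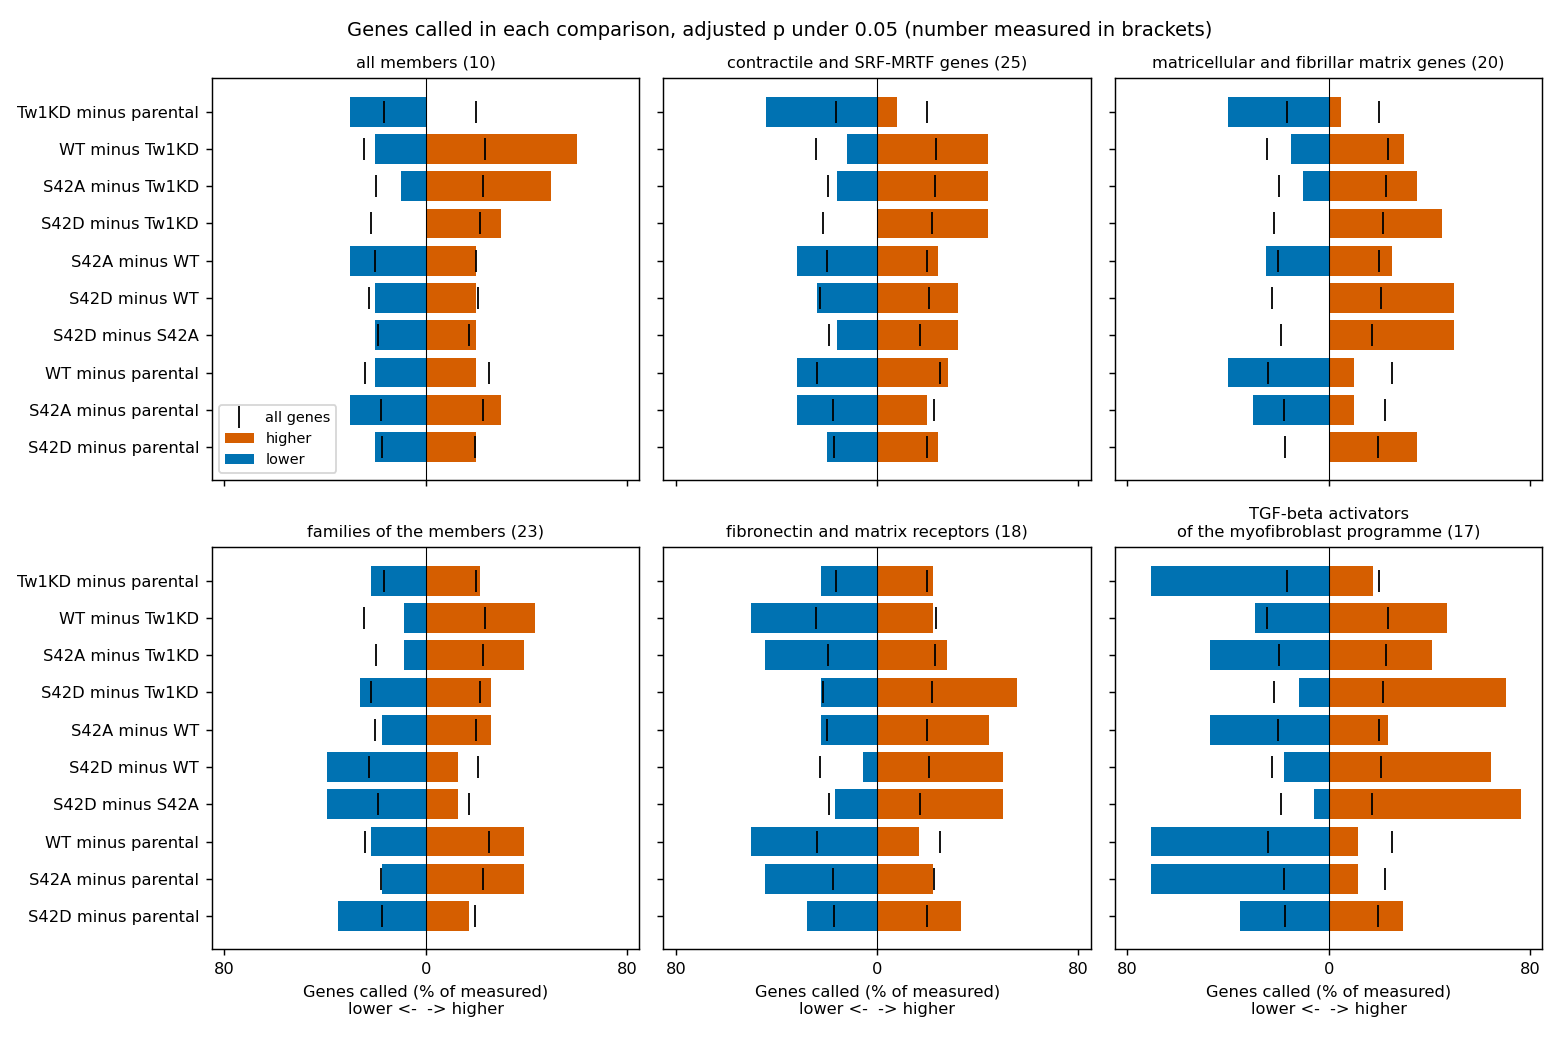
Share of measured genes called higher (right, orange) or lower (left, blue) in each of the 10 comparisons (rows) for the 10 markers and 5 related lists, with black ticks at the share over all 19937 genes. On depletion 12 of 17 TGF-beta genes are lower, whereas the 10 markers have 3 lower and none higher.

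Markers of other cells were read on the same arrays. Of 10 fibroblast markers, 1 to 3 lay near background in each line, Lum in all 5. Their mean log2 level per array was 6.95 to 7.05 in parental cells, 6.44 to 6.68 in Tw1KD, 7 to 7.06 in WT, 7.11 to 7.24 in S42A and 7.48 to 7.59 in S42D. The median difference of the 10 between S42D and parental cells was nevertheless -0.03 log2 (all genes -0.031). Only Dpt and Pdgfrb were called higher there and none lower, where 19.8% of all genes were higher and 17.2% lower. Of 8 smooth muscle and pericyte markers, which include Des, only Rgs5 lay under the background threshold. Cnn1 (5.63 to 5.84) and Abcc9 (5.66 to 5.80) lay just above it. Cnn1, Abcc9, Cspg4 and Myh11 were not called in the F test, so they are not shown to be expressed. Their mean was 6.70 to 6.76 in parental cells and 6.61 to 6.71 in the S42A line, with 6.46 to 6.59 in Tw1KD, 6.29 to 6.36 in WT and 6.44 to 6.50 in S42D. Of 9 macrophage and leukocyte markers, 4 to 6 lay near background, the pan-leukocyte gene Ptprc in every line, and their mean ranged from 5.95 to 6.40. Cd68 of this list read 8.50 in parental cells and 9.80 to 10.71 in the other lines, each called higher than parental, and Cd14 read 7.48 to 8.71. Of 7 endothelial markers, Emcn, Kdr and Tek lay near background in every line, and the mean ranged from 5.60 to 6.34, highest in S42D. Only Cdh5 was called higher there than in parental cells, at its highest level (10.67), while Tie1 and Vwf were called lower. Pecam1, Kdr, Tie1, Emcn and Vwf had their lowest means in S42D. The part of other cells in the marker differences was not tested. In bulk RNA, fewer cells of one kind and less RNA per cell cannot be told apart.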

How the data were processed

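Log2 intensities of 34760 probe sets on 15 arrays were used as deposited by the authors. The submitters' processing notes name affy and R 2.10.0, with no role; background correction, scaling and probe summary are not given in the sources used here. Per the labels' protocols, cells grew to 70% confluency and 100 ng of RNA was labelled. Of the probe sets, 21640 carried 1 gene symbol, 1321 several and 11799 none; 21553 symbols were updated by gene number (GRCm38.p6 table). A gene took its brightest probe set with 1 symbol.

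One model with a mean for each line was fitted to all 15 arrays (limma 3.58.1, R 4.3.3), without a replicate block, and all 10 pairs of lines were tested on both sides, with Benjamini-Hochberg adjustment over 19937 genes at 0.05. The script was tested on simulated data. Differences carry the SE and levels the SD. Within lines arrays correlated at 0.997 to 0.999 across genes, and between lines at 0.975 to 0.987. Genes had a median SD of 0.066 log2 among the arrays of a line.

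The markers and lists were chosen with earlier results of these data known. Genes were named by rule: the 10 markers, Twist1, Cdh1 and Epcam, the largest separated call per list and direction, and the 3 genes most like a marker spanning at least 1 log2. Other genes named were chosen after their values were seen. Fbn1, Spp1 and Loxl2 were listed but are not analysed here. The alternatives were a replicate block, median centring, quantile normalization, a neighbour correction over 500 genes, a filter on dim genes, only the lines compared, array weights, a variance trend, all probe sets, means over probe sets and each array left out.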

Additional observations from a re-analysis of the deposited data

How the results depend on the processing

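Of 100 differences (10 markers in 10 comparisons), 47 were called; 38 of these were called under every alternative run, and of the 53 not called, 33 were called under none. No called difference changed sign. With each array left out in turn, the number of markers called ranged from 2 to 5 for Tw1KD against parental cells, 5 to 8 for WT against Tw1KD, 2 to 4 for S42D against Tw1KD and 7 to 8 in the F test. Leaving out dim genes removes Postn, Lox and Fap from the test, and the counts became 5 in the F test, 3 for S42A against WT, 2 for S42D against WT and 2 for WT against parental cells. Median centring gave 7 for S42D against S42A, array weights 5 for Tw1KD against parental cells, quantile normalization 7 for WT against parental cells and fitting only these lines 4 for WT against Tw1KD; the cause was not tested. With the replicate number as a block, the WT count against Tw1KD was 6, as Vim (0.093) and Fap (-0.19) were not called, and Tnc in S42D over Tw1KD (0.26) was lost. A pairing of arrays by replicate number was not apparent. Deviations from the line mean had a median correlation of -0.038 in same-number pairs and 0.038 in other pairs. Of 30 same-number pairs, 7 had a correlation over 0.1, and 6 of 15 arrays correlated best with their own number. The pairs share arrays and line means, so they cannot settle whether arrays with the same number had a common batch. Over all genes, median centring moved the share of calls that were higher from 54.8% to 65.2% for Tw1KD against parental cells, 51.0% to 68.4% for WT and 56.1% to 71.7% for S42A against parental cells, 50.0% to 39.5% for S42D against Tw1KD, 47.9% to 33.2% for S42D against WT and 47.2% to 30.0% for S42D against S42A.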

Other observations

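Among 18 genes for receptors of fibronectin and other matrix proteins, 4 were higher and 4 lower on depletion, against 19.9% and 16.4% of all genes, which is near the background. In WT 4 were higher and 9 lower than in Tw1KD, where 23.5% of all genes were higher and 24.5% lower. Against Tw1KD, S42A had 5 higher and 8 lower (all genes 22.8% and 19.7%) and S42D 10 higher and 4 lower (all genes 21.7% each). The integrin gene Itga8 had means of 9.91 ± 0.040 in parental cells, 9.02 ± 0.059 in Tw1KD, 5.50 ± 0.18 in WT, 10.41 ± 0.027 in S42A and 10.05 ± 0.020 (SD, n = 3) in S42D. It was lower in WT than in Tw1KD by -3.52 ± 0.069 log2 and higher in S42A than in WT by 4.91 ± 0.069. The WT mean lay at the background threshold, where differences can be compressed. Itga2, the chain of a collagen-binding integrin, had 10.77, 10.73, 9.33, 7.90 and 7.64 in the order parental, Tw1KD, WT, S42A and S42D. Itga1, the chain of another collagen-binding integrin, had 10.69, 8.21, 8.76, 9.20 and 10.81. Itga5, which with Itgb1 forms the main fibronectin receptor, was higher than in parental cells by 0.62 ± 0.050 in WT, 0.59 ± 0.050 in S42A and 0.77 ± 0.050 in S42D, and also by 0.28 ± 0.050 in Tw1KD. Its partner Itgb1 was lower than in parental cells in Tw1KD (-0.40 ± 0.042), WT (-0.43 ± 0.042) and S42D (-0.16 ± 0.042), and was not called in S42A (-0.066 ± 0.042).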
